A study of Rattus norvegicus with 9 samples.

Results

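The ductal and mucosal epithelial genes described here are a list of 30 markers of the pancreatic duct and related epithelia. Of these, 29 had a probe set assigned to a single gene, out of 14217 such genes on the array. Sox9 was not analysed here. The members were chosen by name, with earlier results of these data known. Each gene was read from its brightest single-gene probe set. The samples were islets of Wistar rats, each hybridised to its own Affymetrix Rat Genome 230 2.0 array. For 30 days the obese group of 5 samples had eaten a high-caloric cafeteria diet, an energy-dense choice of human foods, and the lean group of 4 samples a standard chow diet. All islets were freed by collagenase digestion right after the animals were killed. Each sample is titled as a rat, but whether islets were pooled is not stated, and p-values here cover only the spread among the 9 samples, which may be technical. The labels give neither age, sex nor feeding state.

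The ducts of the pancreas carry the enzymes of the acinar cells to the gut and add a fluid rich in bicarbonate. Their lining is a simple epithelium, held by keratin filaments and sealed by claudins, with the chloride channel Cftr at its inner surface. Fragments of ducts can stay attached to islets after digestion. Several of the genes, such as Krt8, Krt18, Epcam and Clu, are also active in islet endocrine cells, so the list does not read duct cells alone. In RNA of whole islet samples, fewer cells of a type and less RNA per cell cannot be told apart.

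All values are log2 expression values made by RMA, and all differences are cafeteria minus chow. No member passed the test: by limma 0 of 29 reached an adjusted p of 0.05, as did 0 of 31042 probe sets (0.0%), although 1789 probe sets had an unadjusted p under 0.05. The members' adjusted p ran from 0.844 to 0.980. Lower values under the cafeteria diet were found for 23 of the 29 members and higher values for 6, whereas 49.2% of all genes were lower. The median difference of the members was -0.19, beside 0.0025 for all genes. At an unadjusted p under 0.05 there were 5 members lower (background 3.28% of genes) and 0 higher (3.42%). These 5 were Tff3, Cd24, Elf3, Krt8 and Prom1. The list was chosen with earlier results of these data known, so these counts describe it and test nothing.

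The count of lower members depended on single chow arrays. The mean deviation of the members from their 9-array means was 0.65 in chow replicate 1, the most extreme of all arrays. On the cafeteria arrays it lay between -0.23 and -0.0283, and on the other chow arrays it was 0.18, -0.20 and -0.14. Chow replicate 1 was picked for its high values in these genes, so a rise of the differences without it was built in. Without chow replicate 3, 27 of the 29 members were lower, with a median difference of -0.20. Without chow replicate 1 only 15 of the 29 members were lower and 14 higher, with 47.1% of all genes lower. The median difference was then -0.0636, beside 0.0097 for all genes, and 8 members changed sign. At an unadjusted p under 0.05, 3 members were lower without this array (Tff3, Cd24 and Elf3; background 5.42% of genes) and 1 higher (Onecut1; background 4.93%), with a smallest adjusted p of 0.560.

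**Figure D1:**
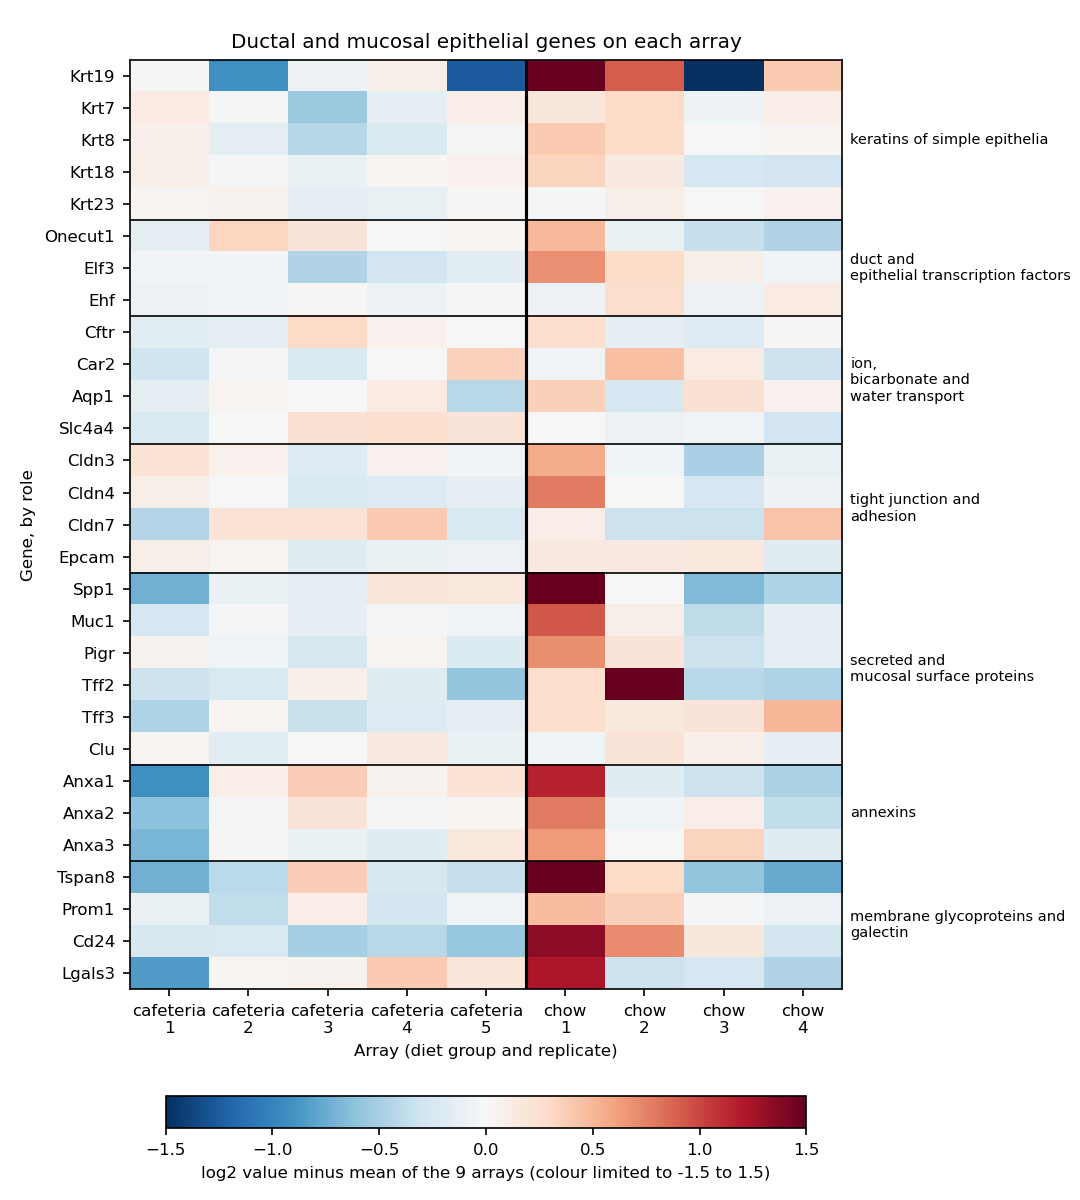
Each row is a gene, grouped by role, and each column an array, with the cafeteria arrays left of the chow arrays. The colour gives the log2 value minus the gene's mean over the 9 arrays, and chow replicate 1 is the highest array for 18 of the 29 genes.

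The upstream sequences of 4 members are shown, picked by their values, although none of the 4 passed the limma test. Tff3 was the member whose diet groups did not overlap, Cd24 and Elf3 had the next smallest p, and Tspan8 had the widest gap between chow replicate 1 and the next array. Each is the 250 bases before the gene's start, from RefSeq on build GRCr8. The windows of 20 of the 29 members were used here. The windows are chr20:9199334-9199583 on the minus strand for Tff3, chr20:48656227-48656476 on the plus strand for Cd24, chr13:49247087-49247336 on the minus strand for Elf3 and chr7:53330937-53331186 on the plus strand for Tspan8. Capitals mark matches to the 5 short motifs named after the sequences.
Tff3: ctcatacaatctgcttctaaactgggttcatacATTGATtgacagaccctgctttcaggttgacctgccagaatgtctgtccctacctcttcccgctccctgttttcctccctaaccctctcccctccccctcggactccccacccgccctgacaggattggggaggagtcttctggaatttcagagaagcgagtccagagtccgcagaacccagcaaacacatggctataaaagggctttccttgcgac
Cd24: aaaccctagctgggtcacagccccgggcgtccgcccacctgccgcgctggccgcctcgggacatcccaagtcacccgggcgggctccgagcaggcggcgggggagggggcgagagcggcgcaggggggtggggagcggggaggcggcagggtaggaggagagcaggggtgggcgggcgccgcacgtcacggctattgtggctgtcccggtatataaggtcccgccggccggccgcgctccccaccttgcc
Elf3: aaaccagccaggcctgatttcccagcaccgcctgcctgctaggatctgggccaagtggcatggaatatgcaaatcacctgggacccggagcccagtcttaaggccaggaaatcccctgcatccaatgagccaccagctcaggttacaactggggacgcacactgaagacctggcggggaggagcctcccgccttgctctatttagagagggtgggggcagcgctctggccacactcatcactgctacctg
Tspan8: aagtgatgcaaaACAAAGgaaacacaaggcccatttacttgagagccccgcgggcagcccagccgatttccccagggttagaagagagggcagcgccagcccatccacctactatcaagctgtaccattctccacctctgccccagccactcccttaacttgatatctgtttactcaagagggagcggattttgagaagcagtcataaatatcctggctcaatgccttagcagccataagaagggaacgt
These 5 motifs were searched on both strands, with overlaps allowed. ATTGAT, a core bound by Onecut factors, was in 1 of the 20 members, Tff3, starting 217 bases before the gene, and in 7.10% of all 33469 windows. ACAAAG, a core bound by SOX factors, was in 5 members, in Tspan8 238 bases before its start, and in 16.3% of all windows. GGAAGT, a core bound by ETS factors such as Elf3 and Ehf, was in 4 members and 19.2% of windows. TGANTCA, bound by AP-1, was in 2 members and 6.34% of windows, and GTTAAT, part of the HNF1 site, in 1 member and 6.45%. In Cd24 and Elf3 none of these letters occurred within the window. A match is a description of the letters and not of a bound site.

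Keratins form the filaments of epithelial cells, and 4 of the 5 keratin genes were lower, with a median difference of -0.22. Krt19, the keratin that best marks ducts within the pancreas (probe set 1388433_at), had log2 values of 5.91, 5.01, 5.86, 6.02 and 4.69 on the cafeteria arrays. On the chow arrays it had 8.83, 6.84, 3.90 and 6.32. The chow arrays thus held both the highest and the lowest value of all, and the cafeteria values lay between them. The difference was -0.98 (SE 0.77; 95% interval -2.68 to 0.73; adjusted p = 0.859). Chow replicate 1 lay 2.00 above the next array, and without it the difference was -0.19 (SE 0.59). Without chow replicate 3, which had the lowest value, it was -1.83.

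Krt8, a keratin of simple epithelia (1371530_at), had 10.13, 9.92, 9.63, 9.84 and 10.07 on the cafeteria arrays, against 10.44, 10.32, 10.04 and 10.09 on the chow arrays. The groups overlapped only through cafeteria replicates 1 and 5, which reached the range of chow replicates 3 and 4. Krt8 differed by -0.31 (SE 0.12; adjusted p = 0.844), and by -0.24 without chow replicate 1. Krt18, its partner in the same filaments, did not show this. It averaged 10.43 ± 0.0747 under the cafeteria diet (SD, n = 5) and 10.40 ± 0.31 under chow (SD, n = 4), a difference of 0.0379 (SE 0.13) whose sign turned when some single arrays were left out. Krt7, a duct keratin (1373900_at), had 9.67, 9.53, 9.0, 9.42 and 9.66 on the cafeteria arrays, against 9.72, 9.86, 9.48 and 9.65 on the chow arrays. Cafeteria replicate 3 was the lowest, and without it the difference of -0.22 (SE 0.14; adjusted p = 0.846) was -0.11. Krt23 was dim, with all arrays between 3.56 and 3.79.

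**Figure D2:**
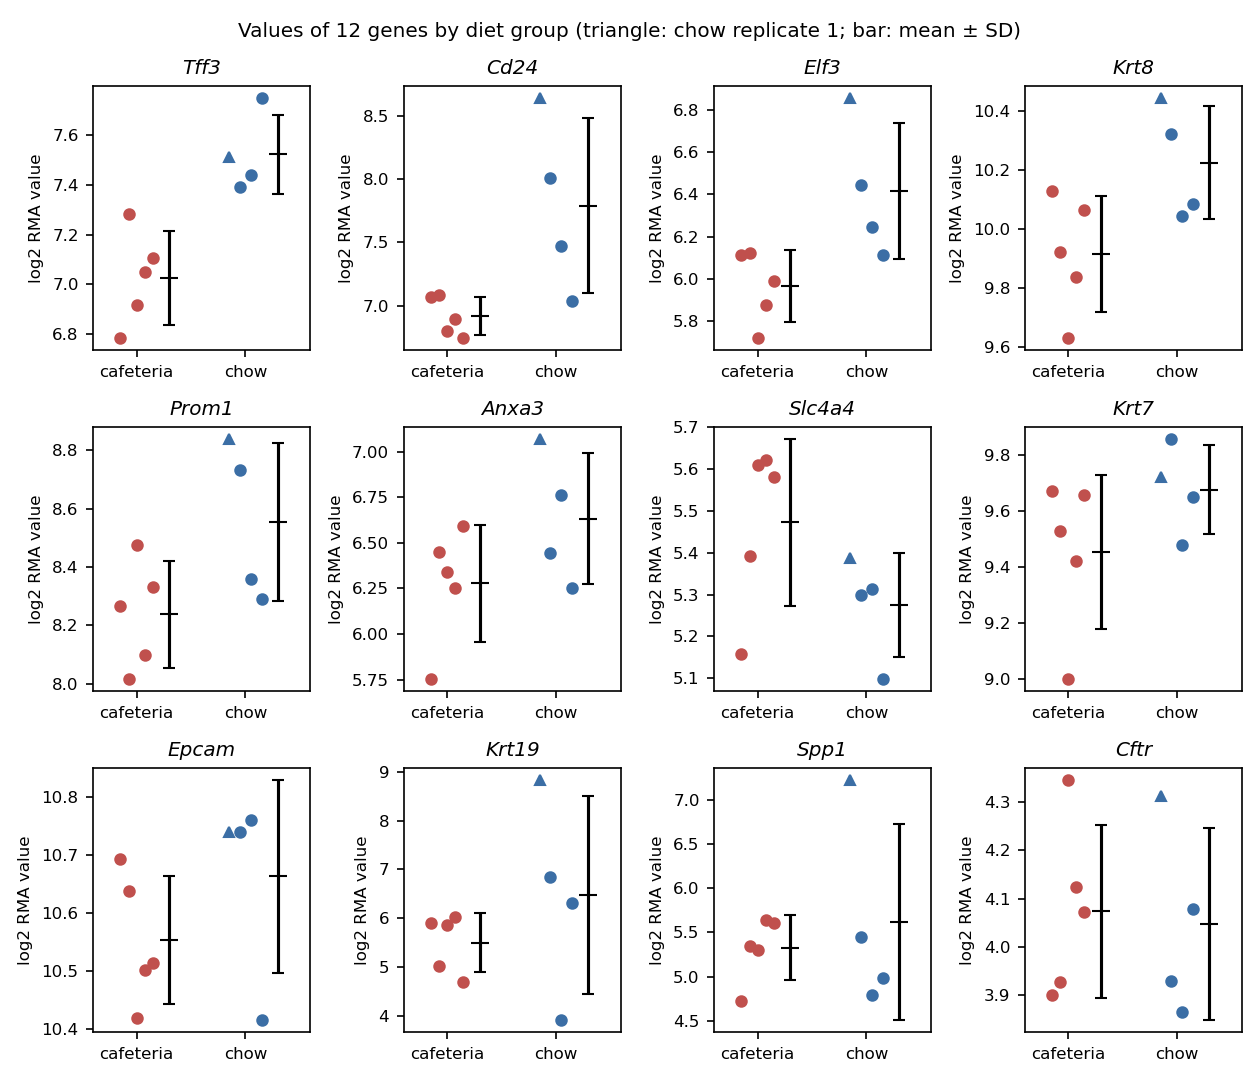
Log2 RMA values of 12 genes for each array, with cafeteria left of chow and the mean ± SD beside the points (n = 5 and 4). The groups are separate in Tff3, while in Krt19 and Spp1 the triangle of chow replicate 1 stands 2.00 and 1.58 above every other array.

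Of the transcription factors of duct and other epithelia, 2 of the 3 measured genes were lower and 1 was higher. Elf3, an ETS factor of differentiating epithelia (1374119_at), had 6.11, 6.12, 5.72, 5.88 and 5.99 on the cafeteria arrays. On the chow arrays it had 6.86, 6.45, 6.25 and 6.11. Only the lowest chow array, replicate 4, fell within the cafeteria range. Elf3 differed by -0.45 (SE 0.15; 95% interval -0.78 to -0.13; adjusted p = 0.844), and by -0.31 (SE 0.12) without chow replicate 1. Its relative Ehf differed by -0.0978 (SE 0.0842), with every array between 4.18 and 4.53. Onecut1, which guides duct development, ranged from 3.99 to 4.45 under the cafeteria diet and from 3.68 to 4.62 under chow. Its difference of 0.19 (SE 0.18) was 0.39 (SE 0.12) without chow replicate 1, the highest array for this gene. Then every cafeteria array but replicate 1 lay above the other 3 chow arrays, though the adjusted p was 0.560. This order arises only once the highest chow value of Onecut1 is removed. The gene was dim, brighter than only 19.9% of probe sets, and a still dimmer probe set of it differed by 0.0581 (SE 0.0795).

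The genes for ions, bicarbonate and water included the 2 members whose highest value lay on a cafeteria array, Cftr and Slc4a4. Cftr, the chloride channel of the duct surface (1384960_at), had 3.90, 3.93, 4.35, 4.12 and 4.07 on the cafeteria arrays, against 4.31, 3.93, 3.87 and 4.08 on the chow arrays. These are low values, brighter than only 17.7% of probe sets, and the groups covered the same range. The difference was 0.0271 (SE 0.12; 95% interval -0.23 to 0.29; adjusted p = 0.980). Slc4a4, a sodium bicarbonate cotransporter that brings bicarbonate into the duct cell (1372479_at), had 5.16, 5.39, 5.61, 5.62 and 5.58 on the cafeteria arrays and 5.39, 5.30, 5.31 and 5.10 on the chow arrays. Cafeteria replicates 3, 4 and 5 lay clearly above every chow array, replicate 2 only just above the highest, and replicate 1 near the lowest. Its difference of 0.20 (SE 0.11; adjusted p = 0.844) was 0.24 without chow replicate 1 and 0.28 without cafeteria replicate 1. A dimmer probe set of the gene differed by 0.0580 (SE 0.11). Car2, a carbonic anhydrase that forms bicarbonate, differed by -0.0931 (SE 0.16), and Aqp1, a water channel that endothelial cells also carry, by -0.18 (SE 0.14).

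The genes of cell contacts were split, with 2 of 4 lower and 2 higher. Epcam, an adhesion molecule of epithelial cells (1388199_at), had 10.69, 10.64, 10.42, 10.50 and 10.51 on the cafeteria arrays, against 10.74, 10.74, 10.76 and 10.41 on the chow arrays. Of the chow arrays 3 were closely alike and above all cafeteria arrays, and replicate 4 was below them all. Epcam differed by -0.11 (SE 0.0931; adjusted p = 0.865). The claudins Cldn3, Cldn4 and Cldn7 seal or shape the tight junctions between epithelial cells. They differed by 0.0479 (SE 0.18), -0.21 (SE 0.18) and 0.0559 (SE 0.20). Cldn4 had 7.25 in chow replicate 1 against 6.22 to 6.55 on all other arrays, and Cldn3 had 7.01 there against 5.96 to 6.65. Without this array Cldn4 differed by 0.0112 and Cldn3 by 0.24 (SE 0.12). Cldn7 did not follow them, with 7.53 in chow replicate 1 and its highest value, 7.85, in chow replicate 4.

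All 6 genes of secreted and mucosal surface proteins were lower in the deposited scaling, with a median difference of -0.25. Without chow replicate 1, 3 of the 6 were lower, with a median of -0.0283. Tff3, a trefoil peptide that mucosal epithelia secrete with mucus (1387218_at), had 6.78, 7.28, 6.92, 7.05 and 7.10 on the cafeteria arrays. On the chow arrays it had 7.51, 7.39, 7.44 and 7.75. Every cafeteria array lay below every chow array. Tff3 was the only member of 29 without overlap, a pattern that 0.837% of all genes showed in this direction and 1.33% in the other. It averaged 7.03 ± 0.19 under the cafeteria diet (SD, n = 5) and 7.52 ± 0.16 under chow (SD, n = 4), a difference of -0.50 (SE 0.11; 95% interval -0.74 to -0.25; adjusted p = 0.844). This was the member that depended least on chow replicate 1, in which Tff3 was not the highest: without that array the difference was again -0.50 (SE 0.13). Leaving out any other single array gave -0.56 to -0.42.

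Tff2, a related trefoil peptide of the stomach, pancreas and other glands, owed its difference of -0.56 (SE 0.41) to another array. Chow replicate 2 had 6.44, whereas all cafeteria arrays lay between 3.97 and 4.65 and the other chow arrays between 4.10 and 4.83. Without chow replicate 2 Tff2 differed by -0.0363. Spp1, osteopontin, which ducts and macrophages secrete (1367581_a_at), had 4.73, 5.35, 5.31, 5.64 and 5.61 on the cafeteria arrays. On the chow arrays it had 7.22, 5.45, 4.79 and 4.99. Apart from chow replicate 1 the groups overlapped throughout. Spp1 differed by -0.29 (SE 0.43; adjusted p = 0.928), and by 0.25 (SE 0.21) without chow replicate 1.

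Muc1, a membrane mucin, had 5.70 in chow replicate 1 against 4.39 to 4.86 elsewhere, and Pigr, the receptor that carries immunoglobulins across epithelia, had 7.61 there against 6.60 to 7.11 elsewhere. Their differences of -0.22 and -0.19 were 0.0537 and 0.0070 without this array. Clu, a chaperone secreted by many cells, was bright on all arrays, between 11.97 and 12.33. It differed by -0.0372 (SE 0.0893), with the sign turned under repeated quantile normalization. A second, much dimmer Clu probe set (1388246_at) went the other way. It had 5.33 to 5.88 on the cafeteria arrays and 4.20 to 5.36 on the chow arrays, a difference of 0.77 (SE 0.22; adjusted p = 0.844). This is the largest gap between probe sets of a member. Of the 9 further probe sets of members, 3 had the opposite sign, and the other 2, of Anxa2 and Anxa3, differed by 0.0287 and 0.0190.

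Annexins bind membranes when calcium is present, and all 3 were lower with every array included, but 1 of 3 without chow replicate 1. Anxa3 (1367974_at) had 5.75, 6.45, 6.34, 6.25 and 6.59 on the cafeteria arrays, against 7.07, 6.44, 6.76 and 6.25 on the chow arrays. Chow replicate 1 was the highest and cafeteria replicate 1 the lowest, and the other arrays overlapped. The difference of -0.35 (SE 0.19; adjusted p = 0.844) was -0.21 without chow replicate 1. Dimmer probe sets of Anxa3 differed by -0.0600 (SE 0.0937), -0.0410 (SE 0.0770) and 0.0190 (SE 0.0844). As in 1367974_at, Anxa1 and Anxa2 were highest in chow replicate 1 and lowest in cafeteria replicate 1. Anxa1 had 8.42 in chow replicate 1 and 6.35 in cafeteria replicate 1, with all others between 6.80 and 7.64. The difference of Anxa1, -0.0807 (SE 0.34), was 0.29 without chow replicate 1, and that of Anxa2, -0.20 (SE 0.22), was 0.0250.

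All 4 membrane glycoprotein and galectin genes were lower, with a median of -0.46, and all 4 had their highest value in chow replicate 1. Without this array 2 of the 4 were lower, with a median of -0.0698. Cd24, a small surface glycoprotein of epithelial progenitors and B cells (1369953_a_at), had 7.06, 7.08, 6.80, 6.89 and 6.74 on the cafeteria arrays. On the chow arrays it had 8.64, 8.01, 7.47 and 7.03. The cafeteria arrays lay close together, and only the lowest chow array, replicate 4, overlapped them. Cd24 differed by -0.87 (SE 0.26; 95% interval -1.45 to -0.29; adjusted p = 0.844). Without chow replicate 1 the difference was -0.59 (SE 0.19). Prom1, which marks the protrusions of epithelial cells (1368008_at), had 8.27, 8.02, 8.48, 8.10 and 8.33 on the cafeteria arrays, against 8.84, 8.73, 8.36 and 8.29 on the chow arrays. Chow replicates 1 and 2 lay above all other arrays, and the other 2 chow arrays lay within the cafeteria range. Prom1 differed by -0.32 (SE 0.14; adjusted p = 0.844), and by -0.22 without chow replicate 1.

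Tspan8, a tetraspanin of glandular epithelia, had 5.30, 5.61, 6.38, 5.77 and 5.67 on the cafeteria arrays, against 8.41, 6.32, 5.42 and 5.26 on the chow arrays. It stood 2.03 above every other array in chow replicate 1, the largest such gap of the members. The difference of -0.60 (SE 0.55) was 0.0831 without this array. Lgals3, galectin-3, found in ducts and macrophages, had 8.0 in chow replicate 1 against 5.95 to 7.19 elsewhere, and its difference of -0.0885 (SE 0.35) was 0.30 without it.

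**Figure D3:**
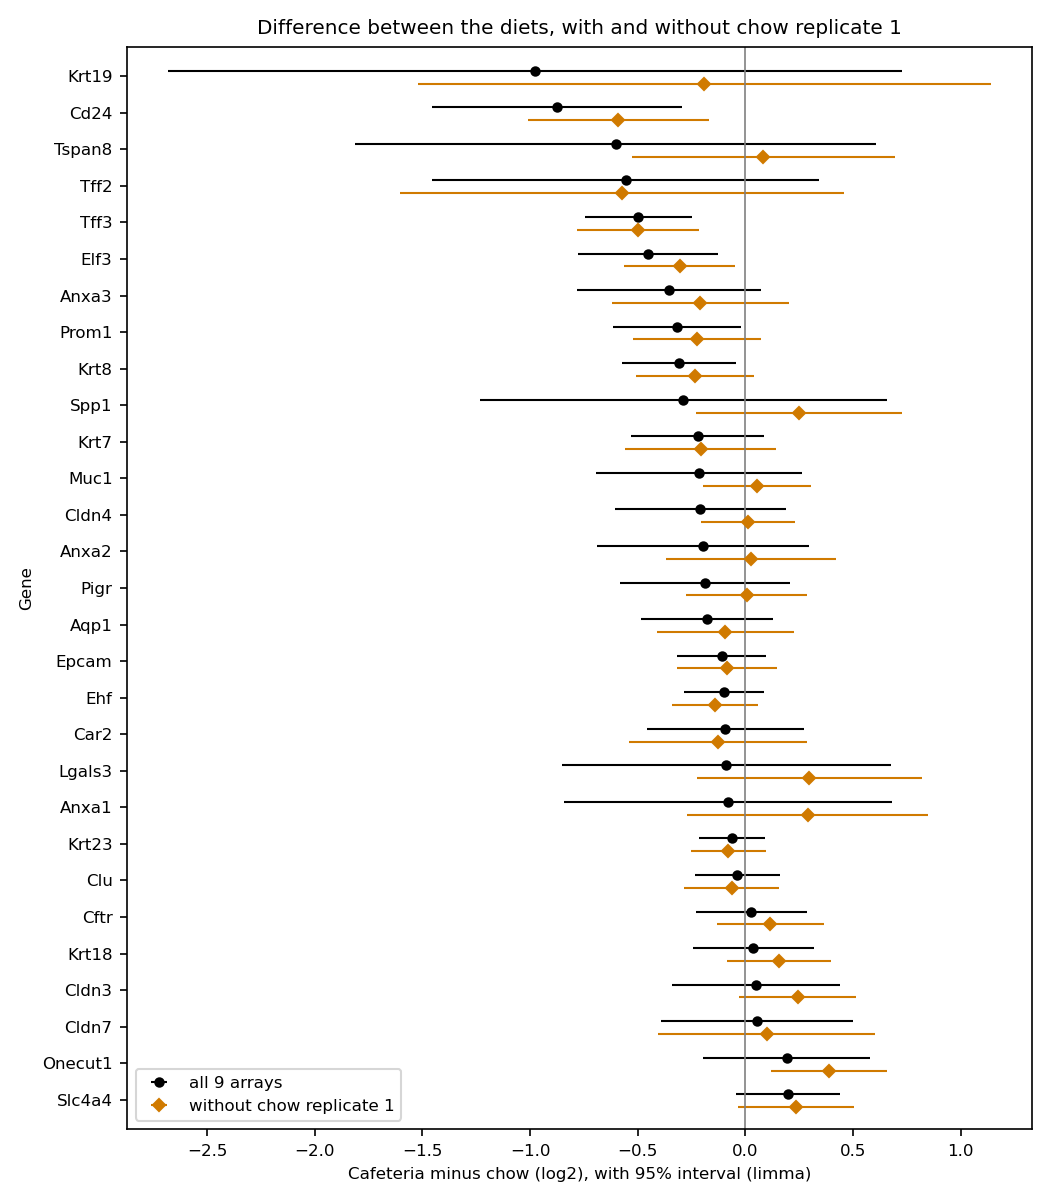
Points give the cafeteria minus chow difference (log2) of each gene with its 95% interval by limma, from all 9 arrays (black) and without chow replicate 1 (orange). The interval lies below 0 for 5 of 29 genes with all arrays. Tff3 stays at -0.50, while Tspan8 and Spp1 cross to 0.0831 and 0.25.

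Across all roles, 18 of the 29 members had their highest value in chow replicate 1 (background 14.2% of genes). In all, 27 had it on a chow array, 6 of them in chow replicate 2, but no background was computed for these 2 counts. In 9 members chow replicate 1 lay over 0.5 above every other array, as in 0.774% of all genes. These were Tspan8, Krt19, Spp1, Muc1, Lgals3, Anxa1, Cldn4, Cd24 and Anxa2, with gaps of 2.03 to 0.58, and Pigr followed at 0.497. The array was chosen for its deviation in these genes, so the counts describe it and test nothing. The lowest value lay in cafeteria replicate 1 for 7 members (background 9.75%). It lay in chow replicate 3 for 7 and in chow replicate 4 for 6, again with no background computed. With all arrays included, the chow values were the more spread. Their SD exceeded that of the cafeteria values in 24 of 29 members, against 47.6% of all genes. Without chow replicate 1 it did so in 17 of 29, for which no share over all genes was computed.

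By the signal of its markers, the label of the list held in part. The means of 23 members lay above the median of all probe set means and 6 lay below it. Those below were Krt23, Cftr, Muc1, Onecut1, Tff2 and Ehf. Among the best-known duct genes, Krt19 was brighter than 60.0% of probe sets, Spp1 than 52.8%, Krt7 than 96.0% and Cftr than only 17.7%. The Spp1 mean includes 7.22 in chow replicate 1, against 4.73 to 5.64 on the other arrays. Epcam, at 98.6%, is also active in islet endocrine cells, so its signal does not read ducts alone. Probe sets bind with different strength, so these positions do not rank the genes by amount.

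The other epithelial genes were a further list of 39 without the members, also chosen with earlier results of these data known. They were read on the same arrays, so they give no separate support. Of 33 measured, 23 were lower and 10 higher, with a median of -0.14, and 0 passed the limma test. The means of 18 of the 33 lay below the median probe set. Without chow replicate 1, 16 were lower and the median was 0.0015. Chow replicate 1 was the highest array for 14 and over 0.5 above all others for 6. The 4 with the smallest p were Ezr, a linker of membrane and actin (-0.49, SE 0.18), Hes1, a Notch target (-0.34, SE 0.14), Kcnn4, a potassium channel (-0.33, SE 0.14), and Krt17, a keratin of stratified epithelia (0.17, SE 0.0808). Of these 4, Hes1 had its highest value in chow replicate 1.

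Other gene lists were read on the same arrays, and 0 of their genes passed the limma test. Immediate early and heat shock genes were lower in 17 of 18, with a median of -0.53, and 14 of 18 were highest in chow replicate 1, where their mean deviation was 1.19. Their summed linear level was 5500 to 10194 on the cafeteria arrays and 6427 to 19639 on the chow arrays. Without chow replicate 1, 12 of 18 were lower, with a median of -0.22. Markers of intestinal epithelium were lower in 7 of 11, with a median of -0.0428, and also deviated most in chow replicate 1 (0.36), but 10 of the 11 were below the median probe set. Without that array 5 of 11 were lower, and the median was 0.0276. Their summed level was 557 to 631 on the cafeteria arrays and 567 to 795 on the chow arrays.

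Immune markers were lower in 18 of 20, with a median of -0.43 and summed levels of 1290 to 1818 on cafeteria and 1934 to 4324 on chow arrays, but their extreme array was chow replicate 3 (1.12), and chow replicate 1 had 0.0720. The means of 12 of the 20 immune markers lay below the median probe set. Without chow replicate 3, 18 of 20 were lower, with a median of -0.18. Without chow replicate 1 it was also 18 of 20, with a median of -0.50. Acinar genes went the other way. They were higher in 21 of 23, with a median of 0.49, and the sums were 1111 to 3916 on cafeteria and 1393 to 2977 on chow arrays. Without cafeteria replicate 5, the lowest array for these genes, 22 were higher and the median was 0.84. Without chow replicate 1 the median was 0.69, with 1 gene lower. Without chow replicate 3 it was 0.38, with 4 genes lower. Endothelial markers were lower in 11 of 13 (median -0.13), with sums of 4347 to 5129 on cafeteria and 4723 to 5018 on chow arrays. Without chow replicate 1, 11 of 13 endothelial markers were lower, with a median of -0.14. Stellate and stroma markers were lower in 6 of 16 (median 0.0214; 9 of 16 and -0.0510 without chow replicate 1), with sums of 2775 to 5052 on cafeteria and 3442 to 4809 on chow arrays. Mesothelial markers were lower in 3 of 6, with 5 of 6 below the median probe set. Their median of 0.0140 was 0.0481 without chow replicate 1 and -0.0415 without chow replicate 3. Their sums of 6431 to 7039 on cafeteria and 5948 to 7655 on chow arrays rest mainly on the remaining gene. The sums therefore do not rank the lists by amount. Islet endocrine genes were lower in 15 of 19 (median -0.13), with sums of 98986 to 114264 on cafeteria and 107472 to 115149 on chow arrays. Without chow replicate 1, 13 of 19 islet endocrine genes were lower, with a median of -0.10. Chow replicate 1 lay over 0.5 above all other arrays for 10 of the immediate early and heat shock genes and 2 of the intestinal genes. It did so for 0 genes of each of the acinar, islet endocrine, immune, endothelial, stellate and mesothelial lists. The part of these genes in the differences of the ductal members was not tested.

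**Figure D4:**
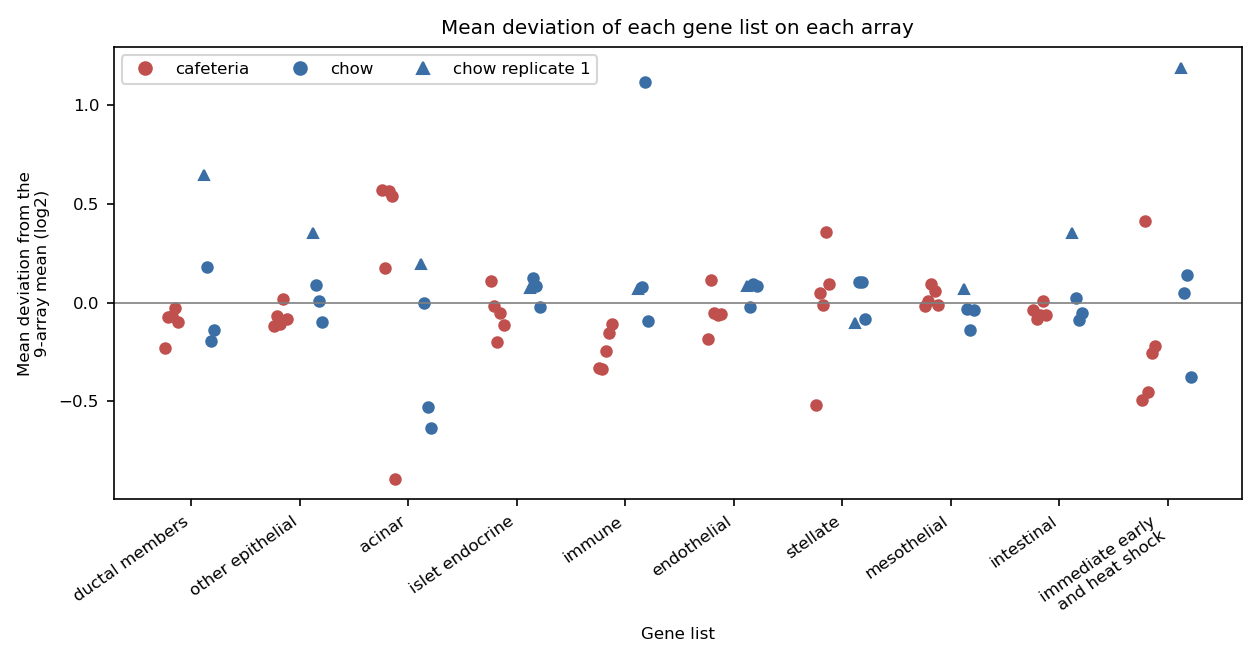
For each gene list, points give the mean deviation of its genes from their 9-array means on each array (log2), with cafeteria left of chow and chow replicate 1 as a triangle. The triangle is the highest point for the ductal members (0.65), the other epithelial genes (0.35), the intestinal genes (0.36) and the immediate early and heat shock genes (1.19), but not for the immune or acinar lists.

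RNA quality, read as the mean 3-prime minus 5-prime difference of the actin and Gapdh control probe sets, averaged 1.51 ± 0.24 under the cafeteria diet and 1.56 ± 0.16 under chow. The difference of -0.0516 was within the spread of the arrays (two-sided exact permutation test, p = 0.746, n = 5 and 4, smallest possible p 0.00794). Chow replicate 1 had the highest single value, 1.80, and cafeteria replicate 1 the lowest, 1.21. The part of RNA quality in the values of these arrays was not tested beyond the fit with it as a covariate, in which 21 members were lower with a median of -0.17. Precision is limited by the number of arrays. The 95% interval of a member's difference reached a median of 0.39 log2 to either side, or 1.31-fold.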

How the data were processed

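Islet RNA of 5 cafeteria and 4 chow samples was measured on 1 Affymetrix array each. The authors deposited log2 expression values per probe set, made with RMA per the submitters' processing notes, which also list R 2.7.0 and affy 2.0.1 without their roles. RMA equalises the arrays' distributions, which removes a shift shared by most genes, and compresses small differences of dim probe sets. Column medians were 5.28 to 5.32, and no 2 arrays held identical values.

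After removal of 57 control probe sets, 31042 were tested. The platform annotation gave 20826 of them a single gene (14217 genes) and 436 several, and 9780 were not listed there. The test was limma 3.58.1 (R 4.3.3; lmFit, eBayes, two-sided, no covariates), with Benjamini-Hochberg adjustment over all probe sets and a threshold of 0.05. It was checked on simulated data. Replicates were numbered in accession order. Members, gene lists and tests were chosen with earlier results of these data known. All members are named. Per-array values are given for members without overlap or with unadjusted p under 0.10 and for best-known duct genes (Krt19, Krt7, Cftr, Epcam, Spp1). Tspan8 and the second Clu probe set were added after their values were seen. Of other epithelial genes the 4 with the smallest p are named. A list's mean deviation averages the log2 difference of its genes from their 9-array means, and its summed level adds the values after return to the linear scale. Plots and tables used Python 3.11.15, pandas 2.3.3 and matplotlib 3.10.9. Alternatives were other scalings, a filter on dim probe sets, another variance model, array weights, an RNA quality covariate, the mean of a gene's probe sets, an adjusted p of 0.10 and leaving out single arrays.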

Additional observations from a re-analysis of the deposited data

Results flagged for a closer look

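Among 70 sets of group values examined (2 per gene or score), 4 held an array far from the rest of its group, where chance gives about 1 in 20 sets. Lgals3 was 8.0 in chow replicate 1, with the next chow array at 6.55. Anxa1 was 6.35 in cafeteria replicate 1, with the next cafeteria array at 7.32, and Anxa2 was 7.39 in the same array, with the next at 7.98. Epcam was 10.41 in chow replicate 4, with the next chow array at 10.74.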

How the results depend on the processing

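The count of probe sets and of members past the threshold was 0 under every alternative run, including an adjusted p of 0.10, and the smallest adjusted p of a member over the alternatives was 0.332 (Tff3). Members lower under the cafeteria diet numbered 19 of 23 among the brighter probe sets and 20 to 23 of 29 under the other 6 alternatives that kept all arrays. With single arrays left out they numbered 15 (without chow replicate 1) to 27 (without chow replicate 3), and the median difference ran from -0.26 to -0.0636. The median was -0.0905 with array weights and -0.11 with the mean of a gene's probe sets, against -0.19. In all, 15 members kept their sign under every alternative and 14 did not. With RNA quality as a covariate Anxa1 differed by 0.0463 and Lgals3 by 0.0136. With array weights Spp1 differed by 0.0315, Anxa1 by 0.0918 and Lgals3 by 0.19. Clu differed by 0.0133 after repeated quantile normalization and by 0.37 with the mean of its probe sets. With single arrays left out, the sign also turned for Krt18 (-0.0517 to 0.16), Cftr (-0.0409 to 0.12), Spp1 (-0.56 to 0.25), Muc1 (-0.38 to 0.0537), Car2 (-0.22 to 0.0402), Cldn3 (-0.11 to 0.24), Cldn4 (-0.33 to 0.0112), Cldn7 (-0.0431 to 0.21), Anxa1 (-0.25 to 0.29), Anxa2 (-0.36 to 0.0250), Pigr (-0.33 to 0.0070), Lgals3 (-0.26 to 0.30), Clu (-0.0861 to 0.0199) and Tspan8 (-0.97 to 0.0831). The causes were not tested. No paired analysis was possible because the labels give no replicate numbers that the groups share.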

Other observations

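Among the other epithelial genes, values chosen after they were seen showed a different extreme array for Slpi, a protease inhibitor of mucosal surfaces. It averaged 5.31 ± 0.40 under the cafeteria diet (SD, n = 5) and 6.43 ± 1.53 under chow (SD, n = 4), a difference of -1.12 (SE 0.58), with its highest value, 8.68, in chow replicate 3, the array with the most extreme immune markers. Without that array the difference was -0.37 (SE 0.24). Agr2, which helps mucins fold, was highest in chow replicate 1, 1.08 above every other array, and its difference of -0.35 was -0.0374 without that array. Cldn2, a claudin of leaky epithelia, was also highest there, by 0.68, and its difference of -0.26 was -0.0422 without it.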
